A study of Mus musculus with 12 samples.

Results

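Cells of the mouse small intestine labelled Mex3a High were compared by their level of Lgr5, the population labelled Mex3a High Lgr5 High against the population labelled Mex3a High Lgr5 Low. The arrays were chosen by the population label alone, which gives 4 of the 12 arrays of the series, 2 for each population. Each population was profiled in 2 biological replicates, MR793 and MR820, so that each replicate gives 1 pair of arrays. All populations are described as untreated primary cells, 2000 per sample, with complementary DNA amplified over 22 cycles. The labels do not say how the level of Mex3a or of Lgr5 was read, from which mice (strain, genotype or age) the cells came, or how many mice make a replicate. The remaining 8 arrays hold Mex3a Low and Mex3a Neg cells of both Lgr5 levels and serve here to estimate the spread and to set the Lgr5 difference beside that at the other Mex3a levels.

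As background, the crypts of the small intestine hold stem cells at their base that carry the receptor Lgr5 and divide steadily under Wnt signals. Their daughters become absorptive enterocytes or secretory cells. Among the secretory cells, tuft cells sense luminal contents with a taste-like signalling chain, enteroendocrine cells release hormones, Paneth cells release antimicrobial peptides and goblet cells release mucus. Mex3a encodes an RNA-binding protein that has been described in a slowly cycling subset of Lgr5-positive cells.

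Levels are log2 values per gene (RMA, a method that summarises the probes of a gene on each array), and differences are given as Lgr5-high minus Lgr5-low. Gene levels were fitted with limma over all 12 arrays, with the standard error (SE) from that fit, and a gene is called when its p adjusted by the Benjamini-Hochberg method over all 17097 genes lies under 0.05. With 2 arrays a population, precision is limited. The p-values rest on the spread between replicates pooled over all 6 populations, not on that of the 2 compared alone.

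One array, that of Mex3a High Lgr5 High cells from MR793, lay far from the other 11 and is called the outlying array. It correlated at 0.896 to 0.916 with them, against 0.971 to 0.996 among them, and its interquartile range was 2.29 log2 units against 2.82 to 2.94. In the pair that holds it, the genes of the brightest tertile had a median difference of -0.59 and those of the dimmest one of 0.39, whereas in the MR820 pair these medians were 0.07 and -0.04. The 2 arrays of MR820 were on the same array strip (strip 2), while those of MR793 were on strips 1 and 3. Results are therefore given for each pair apart and, for the fit, also without the outlying array. Leaving out the other Mex3a High Lgr5 High array instead, so that the population rests on the outlying one, gave 10870 called genes, and that fit is not used for the counts of gene groups below.

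Lgr5 itself was higher in the population labelled for it in both pairs. Lgr5 stood at 9.0 (MR793) and 10.21 (MR820) in Lgr5-high cells and at 8.05 and 7.61 in Lgr5-low cells. Both Lgr5-high arrays lay above both Lgr5-low arrays, by 0.94 in the MR793 pair and 2.60 in the MR820 pair. The fitted difference of 1.77 ± 0.40 (SE, n = 2) was not called (limma adjusted p = 0.0824), and without the outlying array it was 2.38 and called (limma adjusted p = 0.00499). A second probe set for Lgr5 gave pair differences of 1.08 and 2.36. Mex3a itself stood at 6.35 and 5.84 in Lgr5-high cells and at 5.71 and 5.57 in Lgr5-low cells, a difference of 0.45 ± 0.19 that was not called (limma adjusted p = 0.387). Over the Mex3a Low and Mex3a Neg arrays it ranged from 5.44 to 5.91, a range that holds 3 of the 4 Mex3a High arrays, with the outlying array above it.

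Between the 2 populations 234 genes were called, 1.37% of those tested. Of these, 225 were lower in Lgr5-high cells (1.32%) and 9 were higher (0.0526%). All 234 had the same sign in both pairs and arrays that did not overlap between the populations, as was so of 17.5% of all genes in the higher and 14.4% in the lower direction. Of the calls, 205 of the 225 were lower by more than 2-fold, 111 by more than 4-fold and 6 by more than 16-fold. Without the outlying array, 388 genes were called (2.27%), with 41 higher (0.24%) and 347 lower (2.03%), and 224 of the 234 were among them. Without the MR793 array of Mex3a High Lgr5 Low the count was 96, and without that of MR820 it was 134. With the array strip as a block it was 145, of which 137 were shared. With arrays weighted by their fit, or with the Mex3a-high arrays alone, 0 were called by limma, and 463 and 538 had an unadjusted p under 0.05. A filter on dim genes left 110, of which 107 were shared. Of the 234 genes, 97 have several probe sets, and for 86 of these all probe sets had the same sign. Of the 68 called genes named here, 34 were called with each single array left out in turn, the other Mex3a High Lgr5 High array aside.

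Of the 225 genes lower in Lgr5-high cells, 24 belonged to the tuft cell list and 28 to the 5 enteroendocrine lists, with 0 in both. A further 168 belonged to none of the lists. In the plot of pair differences, 28 of 30 tuft genes and 17 of 19 enteroendocrine transcription factors were negative in both replicates, against 19.4% of all genes. Of 17 hormone genes 9 were, and 8 were positive in MR793. Crypt base stem cell genes lay on the positive side in MR820.

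**Figure D1:**
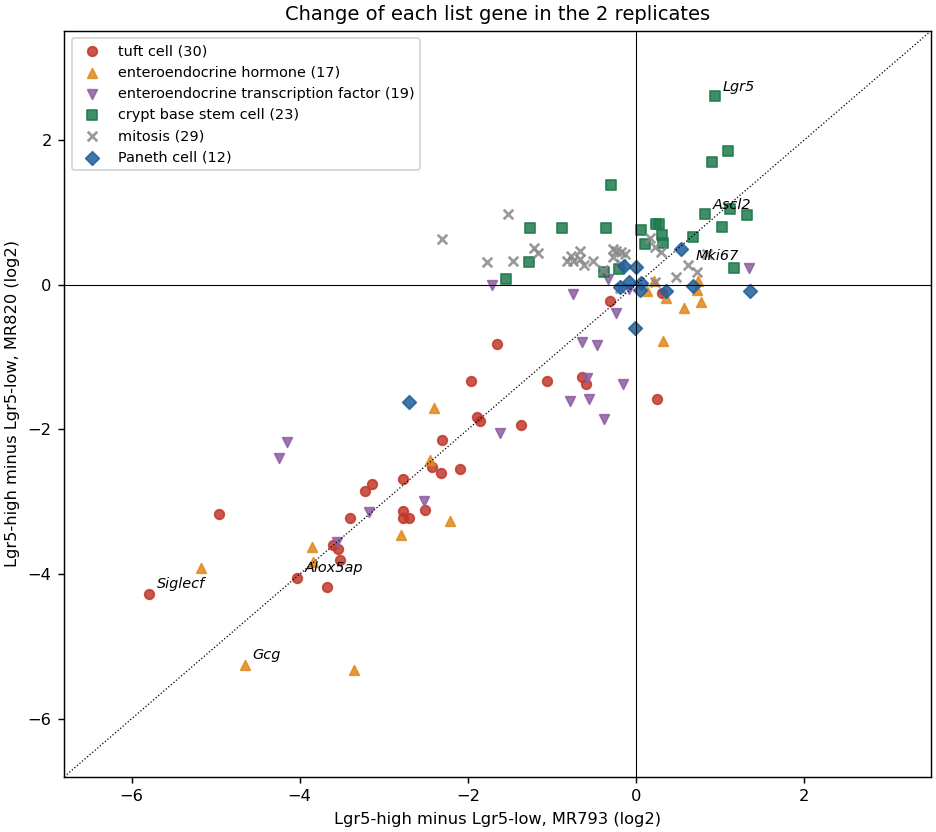
Difference between Lgr5-high and Lgr5-low Mex3a-high cells (log2) in MR793 (horizontal axis) and MR820 (vertical axis), 1 point per measured gene of 6 lists, with the dotted line marking equal differences. Tuft genes lie near that line down to Siglecf at -5.79 and -4.27, while 28 of 29 mitosis genes are positive in MR820 and 8 are positive in MR793.

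Tuft cell genes were lower in Lgr5-high cells as a group. Of 30 measured members 24 were called lower and 0 higher, against 1.32% of all genes called lower. The list was chosen with earlier results of these data known, so its share is not an independent test. Its median difference was -2.60 (-2.47 in MR793 and -2.65 in MR820) against 0.08 over all genes. In the MR820 pair 27 of 30 were lower by more than 2-fold, against 2.23% of all genes. Without the outlying array the count was 27, without the MR793 array of Mex3a High Lgr5 Low it was 16, and without that of MR820 it was 18. In bulk samples such as these, fewer cells of a type and less RNA per cell cannot be told apart.

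Siglecf, a sialic acid-binding surface receptor of tuft cells and eosinophils, showed the largest tuft difference. It stood at 4.63 and 5.87 in Lgr5-high cells and at 10.42 and 10.14 in Lgr5-low cells. The populations lay far apart, and the difference was -5.03 ± 0.56 (limma adjusted p = 0.00181), or 32.7-fold. Dclk1, a microtubule-associated kinase widely used as the tuft cell marker, stood at 8.12 and 8.00 against 11.64 and 11.81, and fell by 3.67 ± 0.32 (limma adjusted p = 0.000447). Fyb, an adaptor protein of immune receptor signalling, stood at 5.22 and 5.40 against 8.75 and 9.05. Its difference of -3.60 ± 0.24 was nearly the same in both pairs (-3.54 and -3.66).

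Members of the taste-like signalling chain of tuft cells were among the calls. Trpm5, the cation channel at the end of that chain, stood at 8.30 and 7.55 in Lgr5-high cells and at 11.00 and 10.78 in Lgr5-low cells, with a difference of -2.97 ± 0.38 (limma adjusted p = 0.00405), which was not called without the MR793 array of Mex3a High Lgr5 Low. Plcg2, a phospholipase, differed by -2.43 and -2.52 in the MR793 and MR820 pairs. Itpr2, an intracellular calcium channel opened by inositol trisphosphate, differed by -1.86 and -1.89, and 4 further probe sets for it gave smaller mean differences, -0.25 to -1.25. Rgs13, a regulator that shortens G protein signals, differed by -3.60 in each pair. Plcb2, the phospholipase of the taste pathway itself, differed between the pairs, with 0.25 in MR793 and -1.58 in MR820, and was called without the outlying array (limma adjusted p = 0.000856) but not with it (0.398). Tas1r3, a taste receptor subunit, was at 7.51 to 7.91 on all 4 arrays, and Sucnr1, the succinate receptor, was dim on all 4, at 4.47 to 5.08. Neither of these receptors was called.

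Alox5ap, Alox5, Ltc4s and Hpgds, members of the tuft list that take part in making eicosanoids, were called lower. Alox5ap, the protein that presents arachidonic acid to 5-lipoxygenase, stood at 6.96 and 6.75 in Lgr5-high cells and at 10.99 and 10.80 in Lgr5-low cells. The difference was -4.04 ± 0.33 (limma adjusted p = 0.000369), or 16.4-fold. For Alox5, the lipoxygenase itself, the difference was -2.32 ± 0.31, for Ltc4s, leukotriene C4 synthase, it was -2.23 ± 0.29, and for Hpgds, a prostaglandin D synthase, -1.86 ± 0.31. All 4 genes had arrays that did not overlap, as did all 234 called genes and, in the lower direction, 14.4% of all genes. Alox5 and Hpgds were not called without either one of the Mex3a High Lgr5 Low arrays.

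Transcription factors of tuft cells were lower as well. Spib, an ETS factor, stood at 6.56 and 6.08 against 10.24 and 10.26, a difference of -3.93 ± 0.48 (limma adjusted p = 0.00313). Pou2f3, the factor without which tuft cells do not form, stood at 6.82 and 6.65 against 9.14 and 9.27 (-2.47 ± 0.34, limma adjusted p = 0.00649). Gfi1b, a zinc finger repressor, differed by -1.37 and -1.94 in the MR793 and MR820 pairs. These 3 factors were called in the fit with all arrays and in the fit without the outlying array. Pou2f3 and Gfi1b were not called without either one of the Mex3a High Lgr5 Low arrays.

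Other called members of the tuft list are signalling proteins. Ptpn6, a tyrosine phosphatase, differed by -3.40 and -3.22, Matk, a kinase that restrains Src kinases, by -3.14 and -2.76, and Bmx, a Tec family kinase, by -2.51 and -3.11. Ptprc, the CD45 phosphatase that is the usual mark of leukocytes and also belongs to the immune cell list, stood at 4.24 and 4.13 against 6.20 and 5.46 and was called (-1.64 ± 0.19, limma adjusted p = 0.00214). It was dim in both populations. The 17 other measured genes of the immune list were not called, and the mean of that list was 5.56 to 6.19 on the 4 arrays, below the median gene (6.48 to 6.61). Il17rb, a receptor of the cytokine IL-25, differed by -2.77 and -2.69. Il25, the cytokine that tuft cells release, differed by -0.65 and -1.28 and was called without the outlying array (limma adjusted p = 0.000611) and not with it (0.0546), and was called with the replicate block (0.0421).

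**Figure D2:**
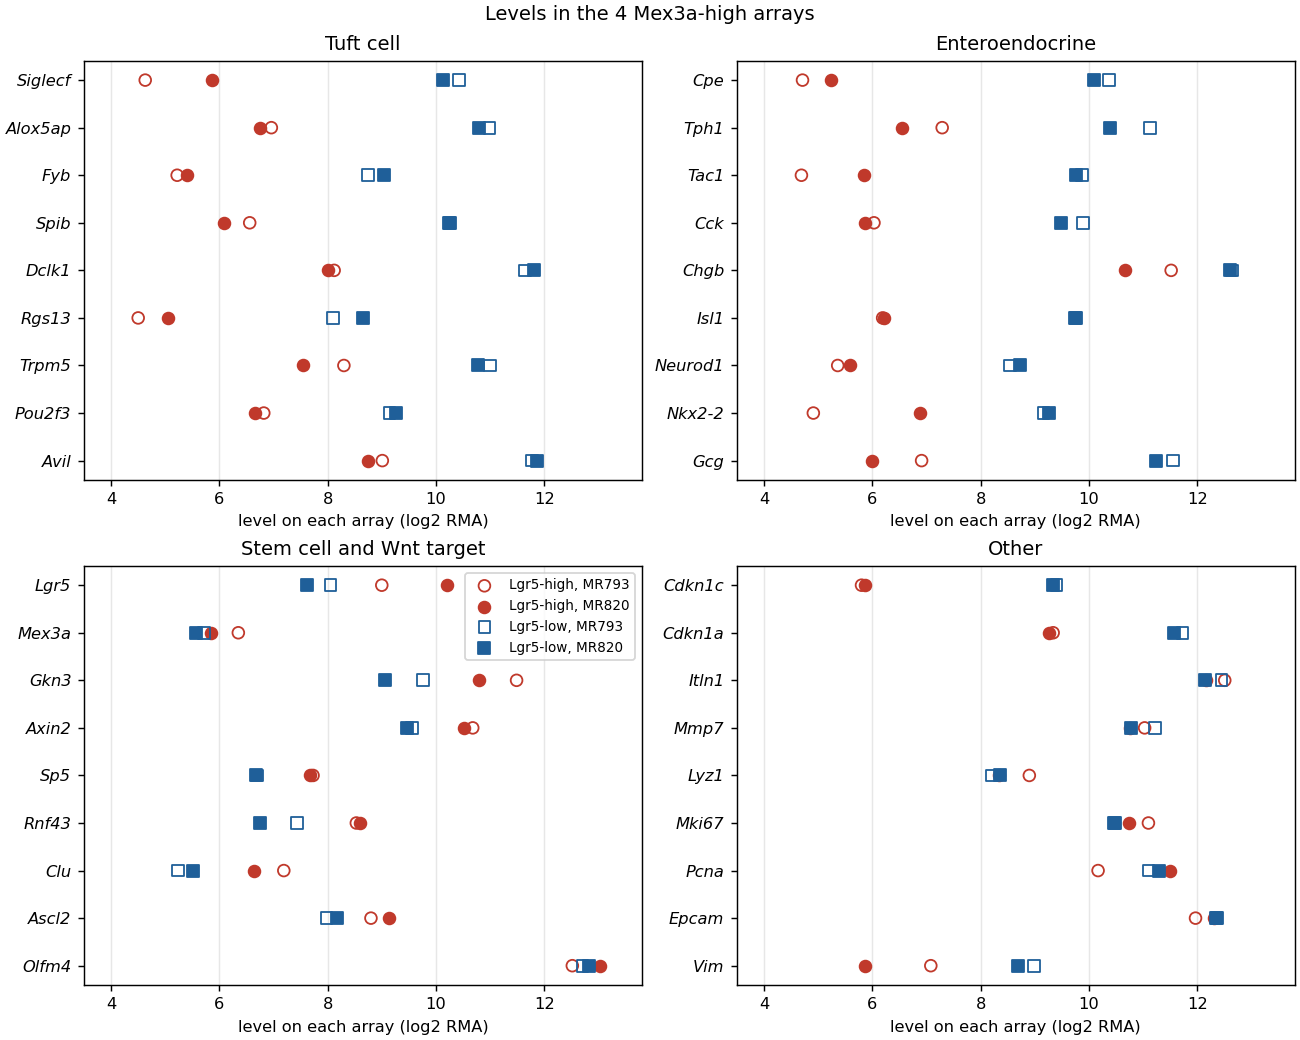
Level (log2 RMA) of 36 genes on each of the 4 Mex3a-high arrays, with circles for Lgr5-high and squares for Lgr5-low cells, open for MR793 and filled for MR820. Tuft and enteroendocrine genes separate the populations, as Siglecf does at 4.63 and 5.87 against 10.42 and 10.14, while Mmp7 and Itln1 of Paneth cells overlap.

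Each of the 5 enteroendocrine lists held genes called lower in Lgr5-high cells. In all, 28 of 83 measured genes were called lower and 0 higher, against 1.32% of all genes called lower. These lists too were chosen with earlier results of these data known. The list medians ran from -2.05 for hormones to -0.30 for receptors and channels. Among hormones and the enzyme for serotonin, 7 of 17 were called lower, with a list median of -2.05 (-2.21 in MR793 and -1.71 in MR820). Tac1, which encodes substance P, stood at 4.69 and 5.85 in Lgr5-high cells and at 9.87 and 9.76 in Lgr5-low cells. Its difference was -4.54 ± 0.58 (limma adjusted p = 0.00419), and a second, dimmer probe set did not show it (1.66 and -0.10). Tph1, which makes serotonin in enterochromaffin cells, stood at 7.29 and 6.54 against 11.13 and 10.39, with the same difference of -3.84 in each pair. Gip, an incretin hormone of K cells, stood at 9.70 and 7.19 against 13.05 and 12.52, and its difference was larger in the MR820 pair (-5.33) than in MR793 (-3.35).

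Cck, cholecystokinin, differed by -3.86 and -3.62, and was called with all arrays (limma adjusted p = 0.0265) but not without the outlying array (0.0532). Ghrl, ghrelin, differed by -2.80 and -3.46, Sst, somatostatin, by -2.21 and -3.27, and Nts, neurotensin, by -2.45 and -2.42. These 3 hormones were called in both fits. Gcg, which encodes glucagon-like peptides, had one of the largest differences (6.91 and 5.99 against 11.56 and 11.24) and was not called (-4.95 ± 1.40, limma adjusted p = 0.203). On the 2 Mex3a Low Lgr5 Low arrays it stood at 10.69 and 4.82, a spread that enters this SE. Pyy, peptide YY of L cells, overlapped between the populations, at 6.97 and 5.68 against 6.65 and 6.46. The count of called hormones was 1 (Nts) without the MR793 array of Mex3a High Lgr5 Low and 4 without that of MR820 or without either Mex3a Low Lgr5 High array.

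Of 19 measured transcription factors of the enteroendocrine lineage, 7 were called lower, against 1.32% of all genes. In both pairs 17 were negative, against 19.4% of all genes. Neurod1, which acts after endocrine commitment, stood at 5.36 and 5.59 in Lgr5-high cells and at 8.54 and 8.73 in Lgr5-low cells, with a difference of -3.16 ± 0.18 (limma adjusted p = 0.00013). Isl1, a LIM homeodomain factor, stood at 6.19 and 6.21 against 9.75 and 9.76. Both genes showed almost the same level in the 2 replicates of each population. Nkx2-2, a homeodomain factor, differed by -4.25 and -2.39, and Insm1, a zinc finger factor of endocrine cells, by -4.15 and -2.17, so their differences were larger in the pair with the outlying array. Neither was called without either one of the Mex3a High Lgr5 Low arrays. St18, a myelin transcription factor relative, differed by -2.52 and -2.99.

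Neurog3, the factor that commits progenitors to the endocrine fate, was bright in both populations, at 8.32 and 8.29 against 8.48 and 9.66. Its difference was -0.16 in MR793 and -1.37 in MR820 and was not called (limma adjusted p = 0.387). A second probe set for it, at 6.34 and 9.08 against 9.15 and 10.54, gave pair differences of -2.82 and -1.46. Pax4, which acts soon after it, differed by -0.56 and -1.58 and was called without the outlying array (limma adjusted p = 0.0192) and not with it (0.116). The count of called factors was 10 without that array and 3 without the MR820 array of Mex3a High Lgr5 Low.

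Genes for making and releasing hormone granules were lower as well. The count of calls given below stands beside 1.32% of all genes called lower. Cpe, the carboxypeptidase that trims prohormones, had the largest difference of all genes measured in the direction of Lgr5-low cells, at 4.71 and 5.23 in Lgr5-high cells and 10.37 and 10.10 in Lgr5-low cells. That is -5.26 ± 0.59 (limma adjusted p = 0.0018), or 38.4-fold. Pcsk1, a prohormone convertase, differed by -3.12 and -2.72, Pam, which amidates peptides, by -2.91 and -2.46, and Scg2, a granin, by -3.04 and -2.78. Chga, the granin used as the general endocrine marker, differed by -3.72 and -3.12 and was called (limma adjusted p = 0.0348), but not without either Mex3a High Lgr5 Low array. Its relative Chgb stayed bright in both populations, at 11.52 and 10.67 against 12.65 and 12.61, and was not called. In all, 5 of 11 granin and processing genes were called lower, and 2 (Cpe and Pam) without the MR793 array of Mex3a High Lgr5 Low.

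In the exocytosis list 7 of 22 genes were called lower, against 1.32% of all genes, and the list median was -0.51. Snap25, a membrane fusion protein of neurons and endocrine cells, differed by -4.19 and -2.54, and Syp, a protein of small secretory vesicles, by -3.28 and -2.48, although a second, dim probe set for Syp was flat (0.20 and 0.12). Ptprn2, a granule membrane protein, differed by -4.02 and -3.57, and Slc18a1, the vesicular monoamine transporter, by -2.55 and -2.27. Second, dimmer probe sets gave -0.99 and -1.15 for Ptprn2 and -0.34 and -0.36 for Slc18a1. Stx1a, a fusion protein of the same complex, was called with all arrays (limma adjusted p = 0.0343) and not without the outlying array (0.0725), nor without any one of the 8 arrays of the other Mex3a levels. Without the MR793 array of Mex3a High Lgr5 Low the count was 3. Snap25 and Slc18a1 were among those not called there. Of the 14 receptors and channels, 2 were called lower, against 1.32% of all genes, both subunits of calcium channels. The median of that list was -0.30, and 7 of 14 were negative in both pairs, against 19.4% of all genes. Cacna2d1 differed by -2.68 and -3.14 and Cacna1h by -1.75 and -2.34, and the latter was not called without either one of the Mex3a High Lgr5 Low arrays.

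Among inhibitors of cyclin-dependent kinases, 1 of 11 genes was called, against 1.37% of all genes. Cdkn1c, which encodes p57 and holds cells out of the cycle, stood at 5.80 and 5.86 in Lgr5-high cells and at 9.40 and 9.33 in Lgr5-low cells. The arrays of each population were nearly equal, and the difference was -3.53 ± 0.27 (limma adjusted p = 0.000259), or 11.6-fold. Cdkn1a, p21, was bright in both populations, at 9.34 and 9.27 against 11.73 and 11.58. Its difference of -2.35 ± 0.53 was not called (limma adjusted p = 0.0834), and was called with the replicate block (0.0244). The count was 2 without either Mex3a Neg Lgr5 Low array, with Cdkn1a added. Cdkn1b, p27, differed by 0.05 in the MR820 pair and by -1.81 in the MR793 pair, while a second probe set gave -0.01 and 0.81.

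The genes higher in Lgr5-high cells were few and included targets of Wnt signalling. Of 17 measured Wnt target genes 3 were called higher and 0 lower, against 0.0526% of all genes called higher, and the list median was 0.43 (0.38 in MR793 and 0.56 in MR820). Sp5 and Axin2 are shown with the sequence before their start sites, because both rose by about the same amount and both are direct targets of the Wnt effectors TCF and LEF. The letters CTTTGAT, a TCF/LEF motif, were searched on both strands and are capitalised where found. The windows are the 250 bases before the start, from RefSeq on GRCm38.p6, both on the plus strand, at chr2:70474673-70474922 for Sp5 and chr11:108920099-108920348 for Axin2.

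Sp5: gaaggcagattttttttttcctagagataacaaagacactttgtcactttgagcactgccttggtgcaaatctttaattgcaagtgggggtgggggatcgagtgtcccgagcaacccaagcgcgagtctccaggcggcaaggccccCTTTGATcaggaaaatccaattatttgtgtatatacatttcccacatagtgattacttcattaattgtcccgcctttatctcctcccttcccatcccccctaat

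Axin2: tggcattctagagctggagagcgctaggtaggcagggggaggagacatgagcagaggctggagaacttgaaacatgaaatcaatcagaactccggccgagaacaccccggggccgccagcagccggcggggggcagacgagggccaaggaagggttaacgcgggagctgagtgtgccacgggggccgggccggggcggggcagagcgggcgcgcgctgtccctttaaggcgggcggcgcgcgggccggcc

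Sp5 held the motif 104 bases before the start, and the window of Axin2 held none. Over the list, 1 of the 9 Wnt target genes with a window held it, against 3.22% of the 13605 tested genes with a window. A match describes only these letters, and the absence of one describes only this window.

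Axin2, a brake on Wnt signalling that Wnt itself induces, stood at 10.68 and 10.52 in Lgr5-high cells and at 9.56 and 9.47 in Lgr5-low cells. The difference was 1.08 ± 0.19 (limma adjusted p = 0.0217), or 2.12-fold. Sp5, a transcription factor, stood at 7.73 and 7.68 against 6.70 and 6.67 (1.02 ± 0.19, limma adjusted p = 0.0353). Rnf43, a ubiquitin ligase that removes Wnt receptors, stood at 8.53 and 8.60 against 7.44 and 6.75 (1.47 ± 0.27, limma adjusted p = 0.0317). For these 3 genes the arrays of the populations did not overlap, as was so of 17.5% of all genes in the higher direction. None of the 3 was called with the array strip as a block (limma adjusted p 0.213, 0.367 and 0.116). The count of called Wnt targets was 4 without the outlying array, with Lgr5 added. It was 1 without the MR793 array of Mex3a High Lgr5 Low or either Mex3a Low Lgr5 Low array. It was 0 without the MR820 array of Mex3a High Lgr5 Low or any one of the 4 Lgr5-high arrays of Mex3a Low or Mex3a Neg cells.

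The other genes higher in Lgr5-high cells had varied roles. Gkn3, a gastrokine secreted by epithelial cells, stood at 11.49 and 10.79 against 9.76 and 9.06. Its difference of 1.73 ± 0.31 was the same in both pairs and was called (limma adjusted p = 0.0257), but not without the outlying array (0.055). Clu, clusterin, a secreted chaperone that marks a revival stem cell after injury, stood at 7.19 and 6.64 against 5.24 and 5.51 (1.54 ± 0.25, limma adjusted p = 0.0162). Gas6, a ligand of the TAM receptor kinases, was higher by 1.10 and 1.24, and Slc14a1, a urea transporter, by 1.12 and 1.80. Both were called in both fits, and Gas6 not with the mean over its probe sets (0.67, limma adjusted p = 0.121). None of Clu, Gas6 and Slc14a1 was called with the array strip as a block (limma adjusted p 0.158, 0.0625 and 0.0526) or without either one of the Mex3a High Lgr5 Low arrays. Slc1a2, a glutamate transporter, Cyp2e1, a cytochrome P450, Ccdc3, Psrc1, a spindle protein, and Hes1, a Notch target, were among the 12 largest positive differences by the smaller pair and were not called with all arrays. Cyp2e1 and Hes1 overlapped between the populations. With the replicate block Cyp2e1 and Ccdc3 were called (limma adjusted p 0.00953 and 0.0346). The remaining called genes were Mettl24, a methyltransferase-like protein (5.22 and 5.05 against 4.60 and 4.58, 0.54 ± 0.10, limma adjusted p = 0.0343), and 1 gene model. Gkn3 and Mettl24 were not called without either Mex3a High Lgr5 Low array or any one of the 4 Lgr5-high arrays of Mex3a Low and Mex3a Neg cells.

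Of the 23 measured genes of the crypt base stem cell, 2 (Axin2 and Rnf43) were called higher and 0 lower, and without the outlying array 3 were, with Lgr5 added. Over all genes 0.0526% were called higher with all arrays. All 23 stem cell genes were positive in the MR820 pair, where 48.5% of all genes were. In the MR793 pair 15 were positive, where 57.2% of all genes were. The list median was 0.78 in MR820 and 0.27 in MR793. Ascl2, the transcription factor of Lgr5 stem cells, stood at 8.80 and 9.14 against 7.98 and 8.17. Smoc2, a matricellular protein of the crypt base, stood at 11.38 and 11.02 against 10.36 and 10.22, and Tnfrsf19, a Wnt-induced receptor, at 8.23 and 8.82 against 7.33 and 7.11. None of these 3 was called, although their arrays did not overlap (17.5% of all genes). Olfm4, the brightest stem cell marker, was level at 12.52 and 13.03 against 12.71 and 12.82. Lrig1, a brake on epidermal growth factor receptors, had opposite signs in the pairs, at 8.48 and 10.33 against 9.36 and 9.55. Of 10 measured genes linked to reserve stem cells, Clu was called higher and Dclk1 and Prox1 lower (0.0526% and 1.32% of all genes). In this list Prox1, a homeodomain factor also found in endocrine cells, stood at 4.83 and 5.78 against 8.06 and 7.43. That list had 1 call without the MR793 array of Mex3a High Lgr5 Low. Sox9 and Cd44, which secretory cells also express, differed by -1.28 and -1.26 in MR793 and by 0.31 and 0.78 in MR820, and of 3 further probe sets for Cd44 one was higher in both pairs (0.65 and 0.85).

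**Figure D3:**
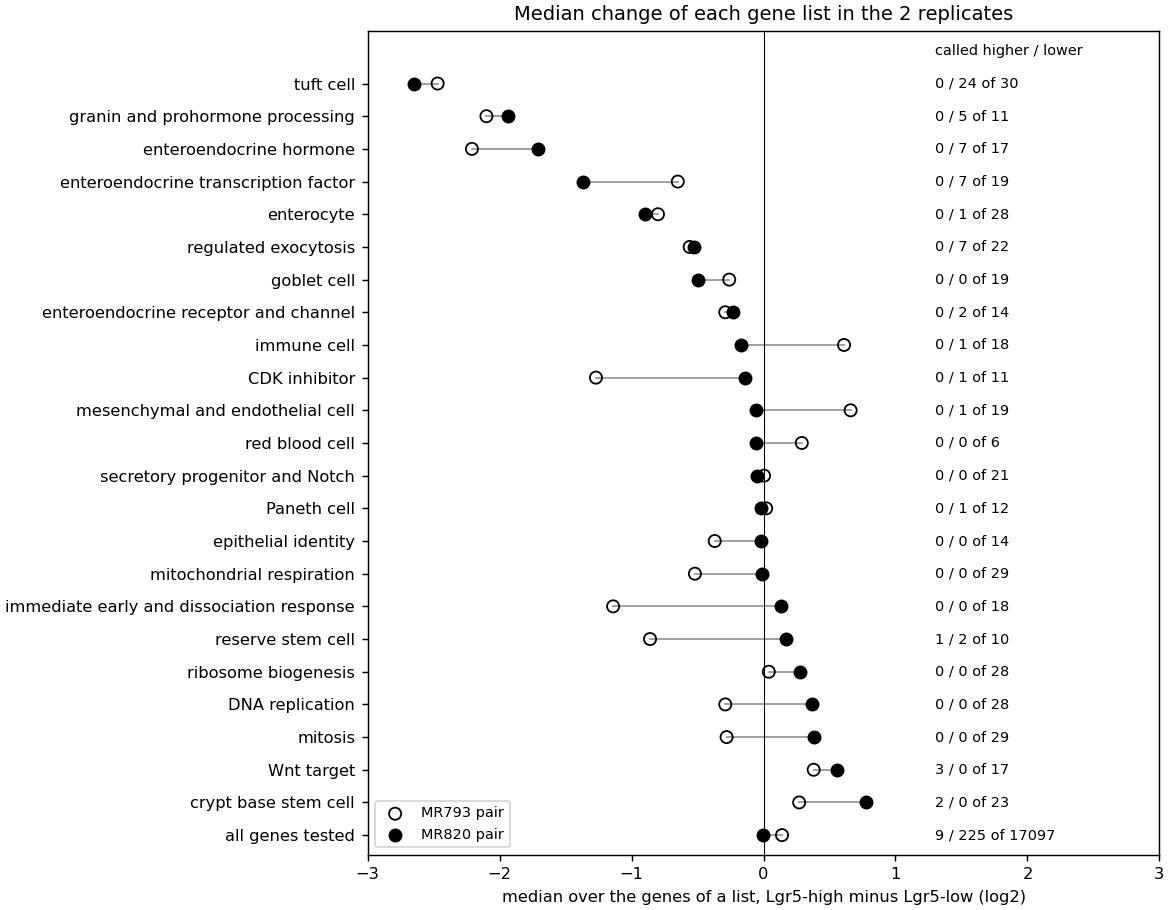
Median difference (log2) of each gene list in the MR793 pair (open circles) and the MR820 pair (filled circles), with the number of members called higher and lower of those measured. Tuft cell genes have the lowest medians, -2.47 and -2.65, and lists such as mitosis and the immediate early response lie on opposite sides of 0 in the 2 pairs.

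Genes of the cell cycle had different signs in the 2 pairs. In the MR820 pair 28 of 29 mitosis genes and 27 of 28 DNA replication genes were positive, with list medians of 0.38 and 0.37. In the MR793 pair 8 of 29 and 8 of 28 were positive, with medians of -0.28 and -0.29. None was called by limma with all arrays, where 2 mitosis and 2 replication genes had an unadjusted p under 0.05. Ect2, a cytokinesis factor, was called higher without the outlying array (1.03, limma adjusted p = 0.0292) and had pair differences of -1.52 and 0.97. Mki67, the proliferation marker, stood at 11.10 and 10.74 in Lgr5-high cells and at 10.48 and 10.47 in Lgr5-low cells (0.45 ± 0.18, limma adjusted p = 0.387). Pcna, the replication clamp, had pair differences of -0.93 and 0.20 (MR793 and MR820). Ribosome biogenesis genes were positive in MR820 for 27 of 28 members, with a median of 0.28, against 15 of 28 and 0.04 in MR793. Mitochondrial respiration genes were level in MR820 (median -0.01) and had a median of -0.52 in MR793. Bright genes as a whole were lower on the outlying array, as given above, and the part of this in the MR793 values of these lists was not tested.

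Of 12 measured Paneth cell genes 1 was called between the Lgr5 gates, against 1.37% of all genes. The list median difference was 0.04 (0.02 in MR793 and -0.02 in MR820). Itln1, intelectin, stood at 12.51 and 12.16 in Lgr5-high cells and at 12.45 and 12.15 in Lgr5-low cells. Mmp7, the protease that activates defensins, stood at 11.03 and 10.76 against 11.22 and 10.78, and Defa21, a defensin, at 12.34 and 11.76 against 12.29 and 11.83. These products of mature Paneth cells were bright and overlapping in both populations. Lyz1, the Paneth lysozyme, was dimmer, at 8.90 and 8.34 against 8.21 and 8.36. Only Pla2g2f, a secreted phospholipase, was called within the list, at 7.37 and 8.23 against 10.07 and 9.85 (-2.16 ± 0.29, limma adjusted p = 0.00581). It was not called without the MR793 array of Mex3a High Lgr5 Low.

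Goblet cell genes had a median of -0.41 over 19 members. By limma 0 were called with or without the outlying array, and 5 and 6 had an unadjusted p under 0.05. Zg16, a lectin of the mucus layer, was low on a single array, at 5.86 in Lgr5-high cells of MR820 against 10.80 in MR793 and 11.40 and 11.41 in Lgr5-low cells. Clca1, a mucus-processing protein, had the same pattern, at 6.61 on that array and 9.65 to 10.33 on the other 3. A second, dimmer probe set for Zg16 was lower on both Lgr5-high arrays, at 7.98 and 5.59 against 9.35 and 9.24. Agr2, a disulfide isomerase needed for mucin, differed by -1.80 and -1.16, and Fcgbp, a mucus component, by -1.02 and -1.15. Tff3, the trefoil peptide, differed by -0.61 and -0.48.

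Of 21 genes of secretory progenitors and the Notch pathway, 0 were called by limma with all arrays or without the outlying array, and 4 and 5 had an unadjusted p under 0.05. Dll4, a Notch ligand of secretory progenitors, differed by -1.11 and -1.12 (limma adjusted p = 0.0935), and was called with the replicate block (0.0162), while a second, dimmer probe set gave 0.50 and -0.35. Atoh1, the master factor of the secretory fate, differed by -1.61 and -0.74, and Dll1, a further ligand, overlapped between the populations. Hes1, which Notch induces and which represses Atoh1, was higher by 1.66 and 0.98 without being called (limma adjusted p = 0.387).

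Enterocyte genes lay lower in Lgr5-high cells without many calls, beside 1.32% of all genes called lower. Of 28 measured genes 24 were negative in both pairs, against 19.4% of all genes, and the list median was -0.89 (-0.80 in MR793 and -0.90 in MR820). Cdhr2, a protocadherin of the brush border, was the only member called, at 9.95 and 10.07 against 11.50 and 11.48 (-1.48 ± 0.24, limma adjusted p = 0.0166). It was not called with the array strip as a block (0.158) or without either Mex3a High Lgr5 Low array. Its partner Cdhr5 differed by -1.14 and -1.67 and was called without the outlying array (limma adjusted p = 0.0278) and with the replicate block (0.0253). The count was 3 without either Mex3a Neg Lgr5 Low array. Krt20, a keratin of differentiated epithelium, differed by -2.47 and -1.93, and Fabp1, a fatty acid carrier, by -2.51 and -2.03. Neither was called.

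Markers of cells outside the epithelium differed in level by list. The mesenchymal and endothelial list had a mean level of 5.32 to 6.11 on the 4 arrays, below the median gene. Its only called member, Vim, vimentin, stood at 7.08 and 5.87 in Lgr5-high cells and at 8.99 and 8.69 in Lgr5-low cells (-2.36 ± 0.43, limma adjusted p = 0.0284). The call of Vim was lost with the array strip as a block (0.0851), without either Mex3a High Lgr5 Low array, and without any one of 6 of the 8 arrays of the other Mex3a levels. All 14 measured genes of epithelial identity were more than 1 log2 unit above the median gene on every one of the 4 arrays. Epcam, the epithelial surface marker, stood at 11.97 to 12.36. The 6 red blood cell genes had a mean level of 6.99 to 7.37, above the median gene, with the brightest at 11.32 to 11.50 and 2 or 3 of them more than 1 log2 unit above the median gene. By limma 0 of the 6 were called, with 2 at an unadjusted p under 0.05, and the list median difference was 0.13. In the immediate early and dissociation list 0 of 18 genes were called by limma, with 1 at an unadjusted p under 0.05, and the medians were -1.14 in MR793 and 0.13 in MR820. Over the 12 arrays the mean of this list was 8.48 to 8.62 in MR820. In MR793 it was 8.86 on the outlying array and 9.49 to 9.84 on all others, highest on the Mex3a High Lgr5 Low array. Whether that array stood apart was not tested. Hspa1b, a heat shock protein, stood at 8.67 on the Lgr5-low array of MR793 and at 3.87 to 5.04 on the other 3 arrays, which 2 dimmer probe sets for it did not show (-0.24 and 0.31 in MR793), and Dusp1, a stress-induced phosphatase, at 10.63 against 8.27 to 8.63.

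Some of the 168 genes called lower outside the lists had the size of the strongest tuft and endocrine genes, and the following were picked from them after their values were seen. Pygl, a glycogen phosphorylase, stood at 6.50 and 5.90 in Lgr5-high cells and at 10.05 and 10.21 in Lgr5-low cells (-3.93 ± 0.31, limma adjusted p = 0.000278). Hk1, a hexokinase, differed by -3.36 and -2.94, Fes, a tyrosine kinase, by -3.02 and -3.32, and Pik3cg, the gamma catalytic subunit of phosphoinositide 3-kinase, by -2.38 and -3.15. Rac2, a small GTPase of blood cells, differed by -2.46 and -3.04, and Scgn, a calcium sensor of endocrine cells, by -2.85 and -2.70. Rac2 was not called without the MR793 array of Mex3a High Lgr5 Low. By the rule, Basp1, a membrane-bound signalling protein, and Fut2, a fucosyltransferase, were also among the 12 largest negative differences. Fut2 stood at 6.76 and 6.66 against 10.69 and 10.34 (-3.80 ± 0.29, limma adjusted p = 0.000278), and Basp1 differed by -3.84 and -3.73.

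Kctd12 and Avil, both called tuft genes, are shown with the sequence before their start sites to set 2 tuft genes that fell together beside each other for the octamer ATGCAAAT, the motif bound by POU factors such as Pou2f3. Kctd12, a subunit of GABA-B receptors, stood at 4.65 and 6.64 against 9.61 and 9.81, and Avil, the actin-bundling protein advillin, at 9.01 and 8.74 against 11.78 and 11.87. Kctd12 was not called without either one of the Mex3a High Lgr5 Low arrays. The windows are again the 250 bases before the start from RefSeq on GRCm38.p6, read along the gene, at chr14:102982638-102982887 on the minus strand for Kctd12 and chr10:127000459-127000708 on the plus strand for Avil. Matches on either strand are in capitals.

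Kctd12: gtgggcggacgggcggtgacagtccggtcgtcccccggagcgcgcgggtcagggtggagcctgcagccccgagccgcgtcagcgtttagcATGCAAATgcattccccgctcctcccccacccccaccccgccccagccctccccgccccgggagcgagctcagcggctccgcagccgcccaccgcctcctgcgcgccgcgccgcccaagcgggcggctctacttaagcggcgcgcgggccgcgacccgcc

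Avil: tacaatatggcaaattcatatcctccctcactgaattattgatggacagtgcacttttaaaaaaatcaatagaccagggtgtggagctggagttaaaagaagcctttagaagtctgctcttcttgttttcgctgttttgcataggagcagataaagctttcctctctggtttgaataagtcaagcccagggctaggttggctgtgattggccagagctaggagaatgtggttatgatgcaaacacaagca

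Kctd12 held the octamer 160 bases before the start, and the window of Avil held none. Of the 26 measured tuft genes with a window 3 held it (Hpgds, Kctd12 and Sucnr1), against 1.6% of the tested genes with a window. Among those 3, Sucnr1 was not called. Of 2 more motifs searched on both strands, CAGATGG, an E-box of the kind NEUROD1 binds, was in 3 of the 26 (3.99% of the tested genes with a window). GTTGCCATG, part of the RFX motif, was in 0 (0.684%).

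The difference by Lgr5 was then set beside that in Mex3a-negative and in Mex3a-low cells with the interaction term of the same fit, which asks whether it changed with the level of Mex3a. These tests reuse the 4 Mex3a-high arrays. Against Mex3a-negative cells 68 genes were called (0.398%), all more negative in Mex3a-high cells, and 160 without the outlying array (0.936%). Against Mex3a-low cells 13 were called (0.076%), again all more negative, and 46 without that array (0.269%). The first count was 18 to 31 without any one of the 4 Mex3a Neg arrays or the MR793 array of Mex3a High Lgr5 Low. The second was 0 by limma without any of 7 arrays, which were all but one of those of the Mex3a Low and Mex3a Neg populations, with 258 to 390 genes at an unadjusted p under 0.05. It was 3 without the MR793 array of Mex3a High Lgr5 Low, and 29 without the MR793 array of Mex3a Low Lgr5 Low. With the replicate block it was 6. With arrays weighted by their fit both counts were 0 by limma, with 309 and 210 at an unadjusted p under 0.05.

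Tuft genes provided many of the calls against Mex3a-negative cells, where 0.398% of all genes were called. Of the 30 measured, 14 were called more negative in Mex3a-high cells, and 24 without the outlying array. The median difference of the list by Lgr5 was -2.60 in the Mex3a-high, -0.87 in the Mex3a-low and 0.05 in the Mex3a-negative gate. The mean level of the list was 9.20 and 9.12 in Mex3a-high Lgr5-low cells and 7.49 and 6.77 in Mex3a-low Lgr5-low cells. Mex3a-high Lgr5-high cells, at 6.78 and 6.63, overlapped the range of the latter, and all other arrays lay between 5.79 and 6.08. For Fyb, the difference by Lgr5 was -1.87 in MR793 and -0.88 in MR820 in Mex3a-low cells, and 0.09 and 0.19 in Mex3a-negative cells, and the interaction against Mex3a-negative cells was -3.74 ± 0.35 (limma adjusted p = 0.00295). Within Mex3a-low cells alone the difference by Lgr5 was called for 8 genes (0.0468%), 7 of them lower (0.0409%), and 4 of the 30 tuft genes were among these. Dclk1 differed there by -3.99 in MR793 and -2.93 in MR820 (fitted difference -3.46, limma adjusted p = 0.0099), and its interaction of -0.21 ± 0.45 against Mex3a-low cells was not called (limma adjusted p = 0.907). Alox5ap (-2.67, limma adjusted p = 0.0459) and Fut2, which is outside the tuft list (-2.74, 0.0234), were also called in Mex3a-low cells. None of these 3 calls held with the array strip as a block (limma adjusted p 0.248, 0.618 and 0.618) or without either Mex3a Low Lgr5 High array. The count of 8 was 28 without either Mex3a High Lgr5 High array and 1 with the strip block. Leaving out other single arrays gave 0 without either Mex3a Low Lgr5 High array, 1 and 20 without the MR793 and the MR820 array of Mex3a Low Lgr5 Low, and 2 to 4 without any one array of Mex3a High Lgr5 Low or Mex3a Neg cells. Within Mex3a-negative cells 0 genes were called by limma, with 371 at an unadjusted p under 0.05.

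**Figure D4:**
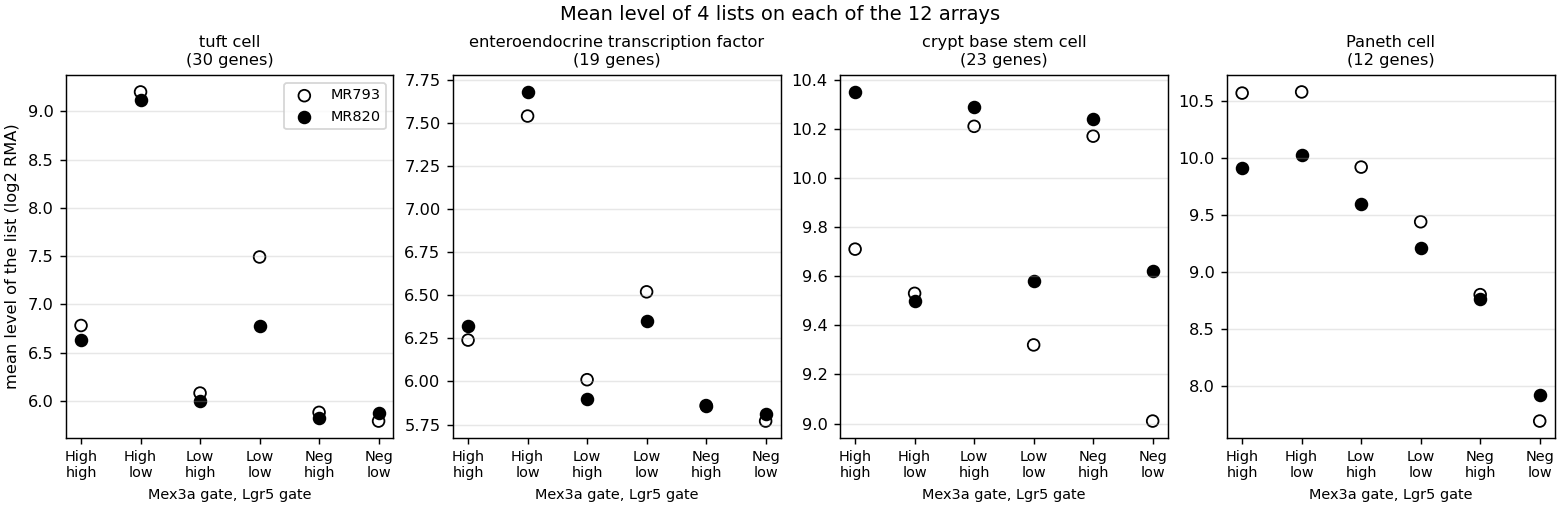
Mean level (log2 RMA) of the measured genes of 4 lists on each of the 12 arrays, by Mex3a gate (upper word) and Lgr5 gate (lower word), open for MR793 and filled for MR820, each panel with its own vertical range. Tuft genes are highest in Mex3a-high Lgr5-low cells at 9.20 and 9.12, and the list median of Paneth genes by Lgr5 is 0.04 at the high and 0.58 at the negative Mex3a gate.

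Enteroendocrine genes were also among the calls, which made up 0.398% of all genes against Mex3a-negative cells. Cpe, with -5.26 in Mex3a-high cells, differed by -4.20 and -1.80 in Mex3a-low and by -0.18 and 0.26 in Mex3a-negative cells (MR793 and MR820), and the interaction against the latter was -5.30 ± 0.83 (limma adjusted p = 0.03). Of the 19 transcription factors 3 were called against Mex3a-negative cells, and 7 without the outlying array. For Neurod1 the interaction was -3.17 ± 0.26 against Mex3a-negative cells (limma adjusted p = 0.00234) and -1.90 ± 0.26 against Mex3a-low cells (0.0477). St18 was also called in both comparisons (-2.83 and -2.09), as was the tuft kinase Bmx (-2.91 and -2.05). Cdkn1c differed by -1.46 in Mex3a-low and by -0.02 in Mex3a-negative cells, with interactions of -3.51 ± 0.37 (limma adjusted p = 0.0054) and -2.07 ± 0.37 (0.191). Outside the lists and picked after their values were seen, Camk2b, a calcium-dependent kinase, and Nebl, an actin-binding protein, were called against Mex3a-low cells, with -2.43 and -2.35.

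No interaction was called for the stem cell and Wnt genes. Lgr5 itself differed by 1.77, 2.86 and 3.21 in Mex3a-high, -low and -negative cells, and by 2.60, 2.65 and 2.71 in MR820. Its interaction of -1.43 ± 0.57 against Mex3a-negative cells was not called (limma adjusted p = 0.865). In Lgr5-low cells Lgr5 stood at 8.05 and 7.61 at the high Mex3a gate and at 6.37 to 7.39 at the others. Gkn3 differed by Lgr5 by 1.73, 1.5 and 1.49 in Mex3a-high, -low and -negative cells, and Axin2 by 1.08, 0.90 and 0.99, with interaction terms of 0.24 ± 0.44 and 0.10 ± 0.26 against Mex3a-negative cells that were not called (limma adjusted p = 0.881 and 0.916). Among the 23 stem cell genes 0 interactions were called by limma in either comparison, with or without the outlying array, and at an unadjusted p under 0.05 there were 2 against Mex3a-negative and 1 against Mex3a-low cells with all arrays. The same held for the 17 Wnt targets, with 2 and 1. Over all genes, 0.398% of the interactions against Mex3a-negative cells were called. Of the 12 Paneth genes 1 interaction was called against Mex3a-negative cells, and 2 without the outlying array, all more negative in Mex3a-high cells. The list median of this interaction was -1.21, and 6 of the 12 had an unadjusted p under 0.05 (8 without that array). Itln1, the member called with all arrays, was higher in Lgr5-high than in Lgr5-low cells by 1.93 and 1.65 among Mex3a-negative cells, and its interaction of -1.75 ± 0.26 was called (limma adjusted p = 0.0209).

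**Figure D5:**
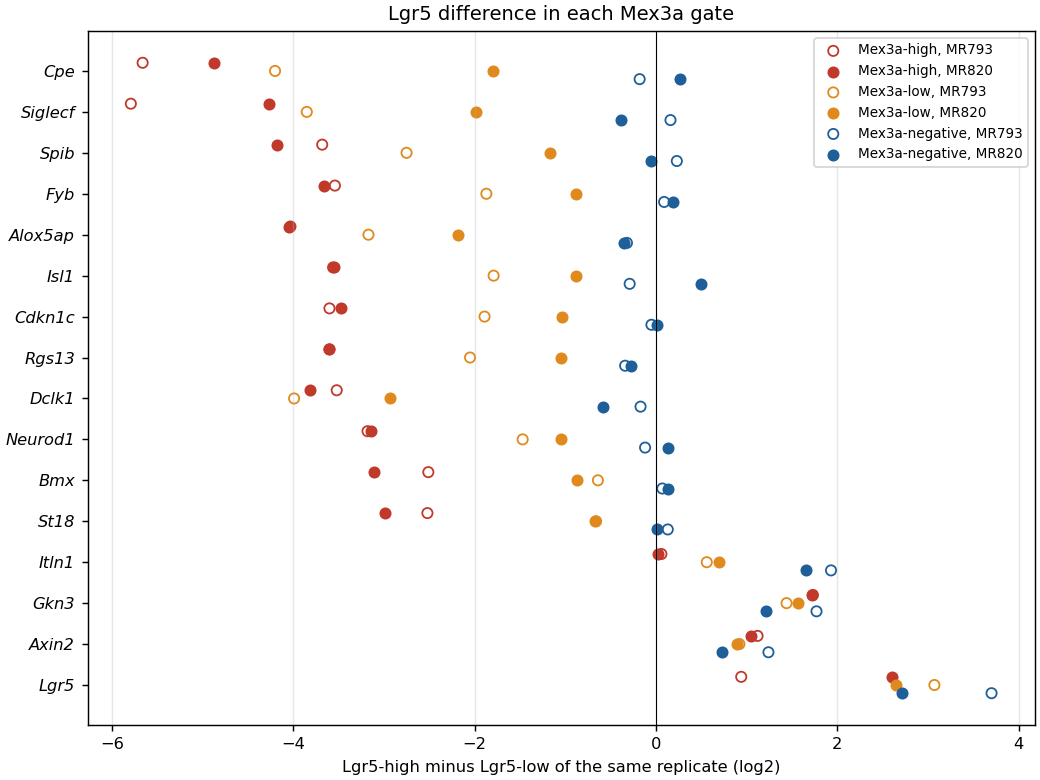
Difference between Lgr5-high and Lgr5-low cells of the same replicate (log2, horizontal axis) for 16 genes in Mex3a-high, Mex3a-low and Mex3a-negative cells, open for MR793 and filled for MR820. From Cpe to St18 the Mex3a-negative points lie near 0, while Gkn3, Axin2 and Lgr5 are positive in all 3 gates.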

How the data were processed

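RNA of 6 populations with 2 biological replicates each was measured on 12 Affymetrix arrays. The deposited log2 values per probe set were made by the authors with RMA, per the submitters' processing notes, with no version or setting named. They were used as deposited, and 0 columns were left unmapped. Of 45141 probe sets, 28898 name 1 gene in the probe table, 551 name several and 15692 are not listed there; 28689 matched a mouse gene table by identifier, which changed 0 names. Each of 17097 genes is represented by its brightest probe set on average (7180 have several). A probe set without signal still has a value, which compresses differences of dim genes.

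Gene means of the 6 populations were fitted with limma 3.58.1 (R 4.3.3; eBayes with trend, no block; residual degrees of freedom 6, prior 3.44). The interaction terms come from the same fit. The fit was tested on simulated data with known changes. Of genes changed by 1, 2 and 4 log2 units it called 31 of 67, 59 of 67 and 65 of 66, with 11 false calls. The simulated noise of a gene had the same spread on all arrays. It held no outlying array or strip difference, so the test does not cover these. One biological replicate name in the labels covers one array of each population, and this was taken as pairing them: deviations of same-named arrays correlated over 0.1 in 14 of 15 population pairs (-0.115 to 0.566; 0.116 for the 2 compared here), and at 0.374 to 0.566 in the 10 pairs without Mex3a High Lgr5 High. Other settings tried were the replicate block, the array strip as a block, both, quantile normalization again, a common median, a filter on dim genes, the mean over probe sets, no trend, array weights, the Mex3a-high arrays alone, and each array left out. Combinations without the outlying array (Mex3a High Lgr5 High of MR793), and leaving out arrays of populations not compared, were chosen after seeing the data. Named genes are Mex3a, Lgr5, the 12 largest positive and 12 largest negative by the smaller of both pair differences of one sign, and list members. The lists and comparisons were chosen with earlier results of these data known. Promoter windows are RefSeq's.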

Additional observations from a re-analysis of the deposited data

Results flagged for a closer look

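The difference by Lgr5 in Mex3a-high cells differed from that in Mex3a-negative cells for 68 genes and from that in Mex3a-low cells for 13 (limma interaction terms). Populations of 2 arrays are too small to test a single array for standing apart. Values below are the Lgr5 difference in Mex3a-high cells minus that at the other level (log2).

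Against Mex3a-negative cells the tuft genes among them were Siglecf (-4.92), Spib (-4.01), Fyb (-3.74), Alox5ap (-3.70), Dclk1 (-3.29), Rgs13 (-3.29), Ptpn6 (-3.27), Matk (-2.98), Bmx (-2.91), Avil (-2.83), Il17rb (-2.67), Plcg2 (-2.61), Itpr2 (-2.49) and Ptprc (-1.77). The enteroendocrine genes were Cpe (-5.30), Isl1 (-3.66), Neurod1 (-3.17), Cacna2d1 (-3.0), St18 (-2.83), Pam (-2.80), Syp (-2.78) and Nts (-2.51). Others were Cdkn1c (-3.51), Itln1 (-1.75), Pygl (-4.04), Basp1 (-3.91), Fut2 (-3.51), Nebl (-3.43), Fes (-3.14), Scgn (-2.85), Pik3cg (-2.77) and Camk2b (-2.73).

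Against Mex3a-low cells the genes named here were Camk2b (-2.43), Nebl (-2.35), St18 (-2.09), Bmx (-2.05) and Neurod1 (-1.90).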

How the results depend on the processing

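All 68 called genes named here kept their sign in every alternative run. Their arrays did not overlap between the populations, so leaving out or weighting single arrays could not have reversed it. The count of called genes, 234, was 284 with the replicate block (230 shared), 145 with the strip block, 105 with both, 110 with dim genes filtered, and 0 by limma with array weights or the Mex3a-high arrays alone (463 and 538 at an unadjusted p under 0.05). Leaving out single arrays gave 96 to 10870. The interaction count against Mex3a-negative cells, 68, was 83 with the replicate block, 141 with the strip block, 17 with dim genes filtered, 0 by limma with array weights (309 unadjusted) and 18 to 8315 with single arrays left out. That against Mex3a-low cells, 13, was 6 with the replicate block and 8 with the strip block. It was 0 by limma with both blocks, with dim genes filtered, without the trend and with array weights (1173, 234, 486 and 210 unadjusted), and 0 to 8187 with single arrays left out.

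Without the outlying array (Mex3a High Lgr5 High, MR793), the 3 counts were 739, 309 and 117 with the replicate block, and 601, 297 and 31 with both blocks. They were 356, 140 and 36 with a common median, and 432, 175 and 65 with the mean over probe sets. The strip block gave 216 against Mex3a-negative cells, and dim genes filtered gave 0 against Mex3a-low cells by limma (635 unadjusted). Of the called genes 3.85% were higher with all arrays, and without that array 26.3% with the replicate block and 18% with a common median. Ect2, -0.27 with all arrays, ran from -1.58 to 1.03 with single arrays left out. Without that array it was 1.01 with the replicate block, 0.89 with both blocks, 1.12 with a common median and 1.03 with the mean over probe sets. Lrig1, -0.05 with all arrays, was 0.74 with the replicate block there. The cause of these changes was not tested.

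Having 2 arrays a population limits the precision of every difference. Genes near background are compressed by the summarised log2 scale.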
